A study of Arabidopsis thaliana with 4 samples.

Results

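AHL21 to AHL29 are 9 Arabidopsis thaliana genes for AT-hook motif nuclear-localized (AHL) proteins, and their transcripts were followed in seedlings with and without an artificial microRNA directed against TEK, another member of the same family. The genes were taken by locus, and all 9 were present among the 30361 gene models of the array, with 1 model each and no other locus sharing that model. RNA came from Landsberg erecta (Ler) seedlings grown on MS medium plates and collected on day 7. The control group was wild type with normal flowering time. The other group, TEKi, was the T3 generation of plants carrying the microRNA (amiTEK), described as a TEK knockdown with late flowering. Each group had 2 single-colour (Cy3) NimbleGen arrays, from separate cultures. Neither the promoter that drives the microRNA nor the number of lines behind the TEKi samples is stated in the labels.

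AHL proteins carry a short AT-hook, which binds the minor groove of AT-rich DNA, and a PPC domain, through which they bind each other and other nuclear proteins. Plants hold them as a family of 2 clades, and AHL21 to AHL29 belong, with AHL15 to AHL20, to clade A, whose genes lack introns. Several of them restrain elongation of the seedling hypocotyl in light, and raising their activity delays flowering and senescence, so that they are known in seedlings as brakes on growth and on the change to reproduction. Members overlap in function, and the loss of a single gene often has little visible effect.

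Which arrays belong to which group depends on the deposited form, of which there are 2. For wild type 1 and TEKi 2 both forms hold one and the same array. The array whose own file is named wild type 2 is listed as TEKi 1 in the series value table, and the one whose file is named TEKi 1 is listed there as wild type 2, with all 30361 intensities identical in each case. These 2 arrays are called filed wild type 2 and filed TEKi 1 below, and each comparison is given with the array-file labels first and with the value-table labels second. By the value table, both wild-type arrays are filed as replicate 1 and both TEKi arrays as replicate 2. Group and filed replicate number therefore cannot be told apart with those labels. TEK, the microRNA's target, had intensities of 13406 on wild type 1, 14118 on filed wild type 2, 9864 on filed TEKi 1 and 13770 on TEKi 2. Its log2 difference was -0.24 with the array-file labels (SE 0.249, adjusted p = 1, limma) and 0.28 with the value-table labels (SE 0.226, adjusted p = 0.694). By the array-file labels the groups overlapped, and by the value-table labels both TEKi arrays were above both wild-type arrays, the opposite of the order that a knockdown label would give. Neither difference passed the test. The arrays' median intensities ran from 5639 to 5814. Of 19 marker genes for leaf, root, shoot apex, flower and seed, none was at 0 on any array. The summed intensity of 4 leaf markers was 231639 to 250195 and that of 4 root markers 42738 to 48354, whereas that of 4 seed storage and oil body markers was 67629 on wild type 1, 34993 on filed TEKi 1, 6192 on filed wild type 2 and 11809 on TEKi 2. The leaf sum is compressed: CAB1 was at the highest value in the files (64046.8) on all arrays but wild type 1, and LHCB2.1 on all but filed wild type 2. Of the seed markers, SESA3 did not follow the sum (2462, 1005, 1613 and 1372 in the order just given). The sum of 4 shoot apex markers was 50044 on wild type 1, 49006 on filed wild type 2, 43167 on filed TEKi 1 and 59962 on TEKi 2. Most of it was KNAT1 (45094, 42716, 39440 and 53887 in the same order). STM was highest on filed wild type 2 and CLV3 on wild type 1, while WUS was lowest on wild type 1. The part of shoot apex tissue in the AHL values was not tested.

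All 9 genes gave signal on all 4 arrays, between 1265 and 32574 in deposited units, none at the highest value that the files hold (64046.8). Intensities of different genes come from different probes (2 probe pairs for 6 of the genes and 3 for the others) and were not set against each other. RNA of whole seedlings was measured, so fewer cells of a type and less RNA per cell cannot be told apart in any value here. For each gene the highest array exceeded the lowest by 0.42 to 1.04 log2 units, with a median of 0.63 against 0.77 over all 30352 genes tested. AHL26 (0.87), ESC (0.88) and SOB3 (1.04) had ranges above that median of all genes. TEKi 2 held the highest intensity for 7 of the 9 (26.2% of all genes), and filed TEKi 1 the lowest for 5 of the 9 (30.5% of all genes).

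**Figure D1:**
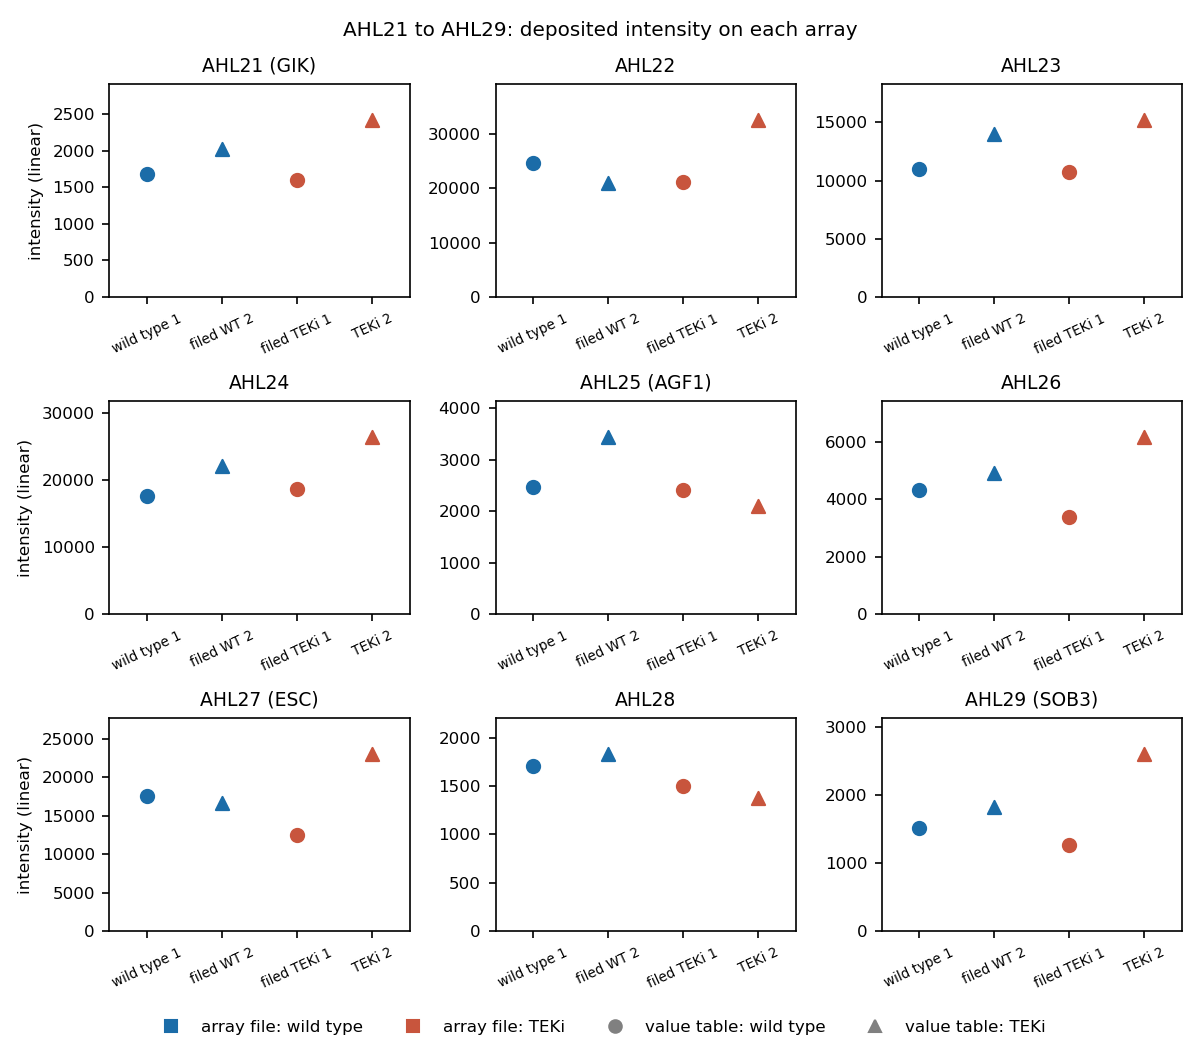
Deposited intensity (linear scale from 0) of each gene on the 4 arrays. Colour gives the group of the array file and marker shape the group of the value table. TEKi 2 is highest in every panel except those of AHL25 and AHL28, where filed wild type 2 is highest.

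The hypocotyl regulators are given first. SOB3 (AHL29, AT1G76500, chromosome 1, 28710426 to 28711456, genome release 6 of the deposited annotation), found as a suppressor of a phytochrome B mutant, had the widest range of the 9. Its intensities were 1518 on wild type 1, 1823 on filed wild type 2, 1265 on filed TEKi 1 and 2601 on TEKi 2. The 2 arrays filed as TEKi were therefore its lowest and its highest, while the 2 that the value table calls TEKi were both above the other pair. ESC (AHL27, AT1G20900, chromosome 1, 7272545 to 7274061), which acts redundantly with SOB3 in light-grown hypocotyls and was also isolated as a gene that delays leaf senescence when overexpressed, had 17557, 16597, 12490.4 and 23040 in the same array order. Here too the arrays filed as TEKi were at both ends, and the value-table groups overlapped, because wild type 1 was above filed wild type 2. AHL22 (AT2G45430, chromosome 2, 18734635 to 18736009), which represses flowering through the chromatin of FT and also shortens hypocotyls when overexpressed, had 24583 on wild type 1, 21040.4 on filed wild type 2, 21186 on filed TEKi 1 and 32574 on TEKi 2. TEKi 2 was the highest array for AHL22, and its groups overlapped under both sets of labels.

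GIK, AHL23 and AHL24 had nearly the same pattern over the arrays. GIK (AHL21, AT2G35270, chromosome 2, 14864100 to 14864957), a target of the floral organ identity protein AGAMOUS that shapes reproductive organs, had 1683 on wild type 1, 2025 on filed wild type 2, 1600.3 on filed TEKi 1 and 2424 on TEKi 2. AHL23 (AT4G17800, chromosome 4, 9895303 to 9896681) had 10962, 14003, 10739 and 15205 in the same order. For AHL24 (AT4G22810, chromosome 4, 11984151 to 11985713) the values were 17604, 22019.6, 18543 and 26367. In all 3 the arrays labelled TEKi by the value table were above the arrays it labels wild type, and the array-file groups overlapped. AHL26 (AT4G12050, chromosome 4, 7219819 to 7221322) had 4307 on wild type 1, 4928 on filed wild type 2, 3385 on filed TEKi 1 and 6174 on TEKi 2, again with the value-table groups apart and the array-file groups overlapping.

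AHL25 and AHL28 were the genes that did not follow TEKi 2. AGF1 (AHL25, AT4G35390, chromosome 4, 16829331 to 16830507), which binds the promoter of the gibberellin synthesis gene GA3OX1 in the negative feedback of that hormone, had 2474 on wild type 1, 3443 on filed wild type 2, 2416 on filed TEKi 1 and 2103 on TEKi 2. AHL28 (AT1G14490, chromosome 1, 4958700 to 4959320) had 1711, 1834, 1501 and 1372 in that order, the narrowest range of the 9. Both arrays filed as TEKi were below both arrays filed as wild type for these 2 genes, and the value-table groups overlapped for both.

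With the array-file labels, none of the 9 genes changed between TEKi and wild type by limma's moderated test with Benjamini-Hochberg adjustment over 30352 genes (threshold adjusted p = 0.05, n = 2 arrays per group). Each had adjusted p = 1, and the smallest unadjusted p by limma was 0.170 (AHL28). Plain per-gene variance also called 0 of the 9. By either, 0 of the 9 had an unadjusted p under 0.05. The share of all genes under it was 4.61% by limma, and the count by plain per-gene variance was 1373 of 30352. The test called 0% of all genes, so these counts say nothing particular to the 9. The largest log2 differences were those of AGF1 (TEKi minus wild type -0.37, SE 0.258, 95% interval -1.15 to 0.41) and AHL28 (-0.30, SE 0.174, interval -0.83 to 0.22). ESC (-0.0090, interval -1.16 to 1.15) and AHL26 (-0.011, interval -1.17 to 1.15) had differences near 0 with wide intervals, since the 2 arrays filed as TEKi lay far apart. SOB3 had a difference of 0.12 (SE 0.448, interval -1.23 to 1.48). The difference was above 0 for 5 of the 9 genes against 50.8% of all genes, and its median was 0.045 against 0.0060 over all genes. That count was 0 without TEKi 2 and 3 without wild type 1. The groups did not overlap for 0 of the 9 genes higher in TEKi (15.3% of all genes) and 2 of the 9 lower in TEKi (14.7%).

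With the value-table labels, no gene of the 9 passed the test either, while 2.22% of all genes did (0.273% higher and 1.95% lower in TEKi). Those calls depended on the setting: plain per-gene variance and the replicate block each called 0 of all genes, whereas quantile normalization called 667 and robust variance 577. The block leaves fewer residual degrees of freedom and plain variance borrows nothing from other genes, so both could call fewer. None of the 9 had an unadjusted p under 0.05 by limma (14.4% of all genes), and plain per-gene variance called 0 of the 9 with 1 under it. AHL23 had the smallest p (log2 difference 0.43, SE 0.159, interval -0.038 to 0.89, unadjusted p = 0.0626 and adjusted p = 0.380, limma). SOB3 had the largest difference, from a mean intensity of 1392 in wild type to 2212 in TEKi (0.65 on the log2 scale, SE 0.265, interval -0.13 to 1.43, adjusted p = 0.417). AHL26 followed at 0.53 (SE 0.235, adjusted p = 0.454), and GIK, AHL24 and ESC lay between 0.40 and 0.43 with adjusted p of 0.435, 0.451 and 0.664. AHL22 (0.20), AGF1 (0.14) and AHL28 (-0.014) were nearest to 0.

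**Figure D2:**
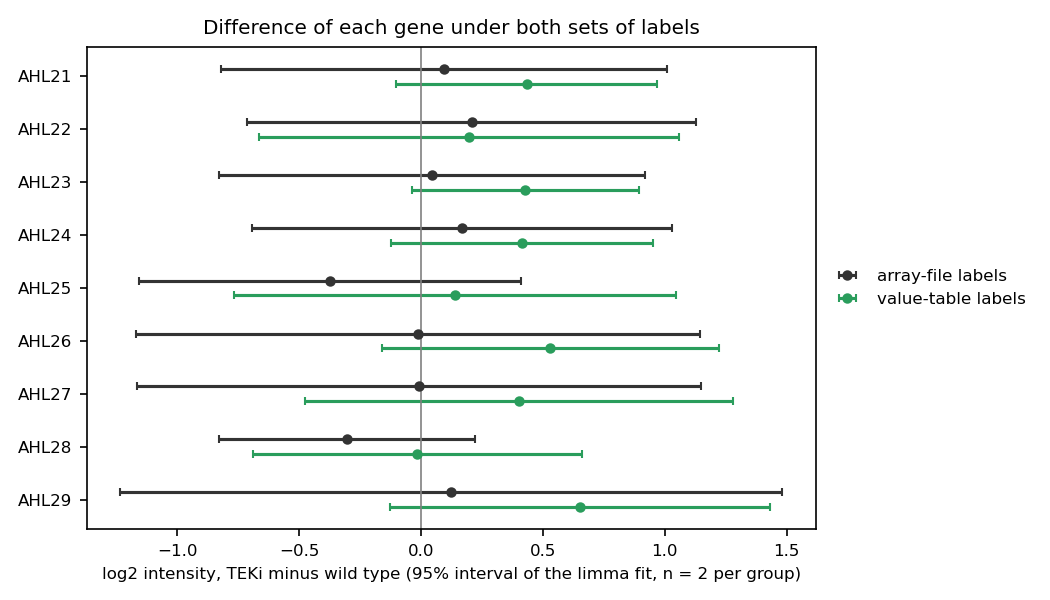
Log2 intensity of TEKi minus wild type for each gene (points) with the 95% interval of the limma fit (bars), under the array-file labels (black) and the value-table labels (green). Every interval holds 0, and the points of the value-table labels lie to the right for AHL21, AHL23 to AHL29.

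In direction, 8 of the 9 genes were above 0 with the value-table labels, against 60.3% of all genes, with a median log2 difference of 0.42 against 0.090 over all genes. The count was 7 to 9 without single arrays. The groups did not overlap for 5 of the 9, all higher in the arrays labelled TEKi (27.7% of all genes), namely GIK, AHL23, AHL24, AHL26 and SOB3, and for 0 of the 9 in the other direction (17.1%). The sum of the seed markers moved with the same labels, from 67629 and 34993 to 6192 and 11809, and its part in these values was not tested. CRA1, CRU3 and OLEO1 were each lower in that direction, whereas the groups overlapped for SESA3 (2462 and 1005 against 1613 and 1372). Each interval held 0, and the upper bounds reached 1.43, so the data limit the size of a difference only loosely: a p above the threshold does not show equal levels.

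Wild type 1 and TEKi 2 are the only pair of arrays from the 2 groups whose labels do not depend on the source. Between them, 7 of the 9 genes were higher on TEKi 2 (56.7% of all genes), by 0.39 (ESC) to 0.78 (SOB3) log2 units, and AGF1 and AHL28 were lower there (-0.23 and -0.32). With 1 array on each side this difference has no replicate check.

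Pairs of arrays resembled each other differently in these genes and in the whole table. Over all genes the 2 closest pairs were those that share a value-table label, wild type 1 with filed TEKi 1 (root mean square log2 difference 0.766) and filed wild type 2 with TEKi 2 (0.733), and the other 4 pairs lay between 1.17 and 1.22. Each of these 2 closest pairs also shares its replicate number in the array files, so group and replicate cannot be told apart in this closeness. Over the 9 AHL genes wild type 1 was close to filed TEKi 1 (0.242) and to filed wild type 2 (0.279). Those last 2 arrays were 0.396 from each other. The pairs that hold TEKi 2 were the widest (0.493 from wild type 1, 0.450 from filed wild type 2 and 0.660 from filed TEKi 1). By the median absolute difference, which large changes of a few genes move less, the 9 differed more than all genes in each pair that holds TEKi 2: 0.47 against 0.38 from wild type 1, 0.42 against 0.27 from filed wild type 2 and 0.60 against 0.36 from filed TEKi 1. In the pairs without TEKi 2 they differed less, at 0.19 to 0.38 against 0.33 to 0.40. These figures are descriptions across genes, which are not independent replicates.

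Likeness between the genes' patterns was taken as the distance between log2 intensities centred on each gene's mean over the 4 arrays. GIK lay nearest to AHL23 (0.104 log2 units) and AHL24 nearest to GIK (0.106). SOB3 and AHL26 were each other's nearest (0.189), ESC lay nearest to AHL26 (0.195), and AGF1 and AHL28 were each other's nearest (0.279). AHL22 was the most separate, at 0.303 from ESC. Among all genes, the 3 nearest to SOB3 were AT4G21780 (0.050), AT3G42182 (0.052) and AT2G12430 (0.058), and 11 genes lay within 0.1 of it. For the other 8 genes, 13 to 77 genes lay within that distance, as 4 arrays leave few distinct patterns.

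AHL genes lie close to each other in some places of the genome, and neighbours in position did not always share a pattern. AHL26 stood 17890 bp from AHL1 with 2 gene models between them, and AHL1 had 26945 on wild type 1, 19549 on filed wild type 2, 25910.2 on filed TEKi 1 and 25055 on TEKi 2, lowest where AHL26 was second highest. AHL24 stood 18455 bp from AHL2 with 3 models between, and AHL2 (3964, 5326, 4672 and 5563) was lowest on wild type 1 and highest on TEKi 2, as AHL24 was. AHL23 was 70320 bp from AHL13, which varied little (51993, 46306, 48761 and 45086). These neighbours are clade B genes, and the distances are those of release 6.

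The rest of the family did not pass the test in any member. Of the other 6 clade A genes, 4 were above 0 with the array-file labels (median 0.12) and 3 with the value-table labels (median 0.13). AHL18, which overlaps with AHL22, ESC and SOB3 in flowering, resembled SOB3 in having filed TEKi 1 lowest and TEKi 2 highest (1099, 744, 446 and 2042). AHL19 was above wild type 1 on all other arrays (15564, 20662, 20619.8 and 29707), and AHL17 was lower on both arrays filed as TEKi (48337 and 39211 against 26778 and 31807, with a log2 difference of -0.58, SE 0.222, adjusted p = 1). Of 14 clade B genes, 10 were above 0 with the array-file labels and 9 with the value-table labels (medians 0.15 and 0.12). AHL8 had the smallest p there, with 2287 and 2263 in wild type by that table against 3816 and 4061 in TEKi (0.79 on the log2 scale, SE 0.156, adjusted p = 0.159). AHL4 (10671 and 11038 against 14437 and 20518) was higher and AHL9 (39755 and 43894 against 21966 and 32228) lower in the same grouping, without passing (adjusted p = 0.377 and 0.416). AHL12 was higher on both arrays filed as TEKi (13214 and 12011 against 17860.2 and 15488, 0.40 on the log2 scale, SE 0.188, adjusted p = 1).

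**Figure D3:**
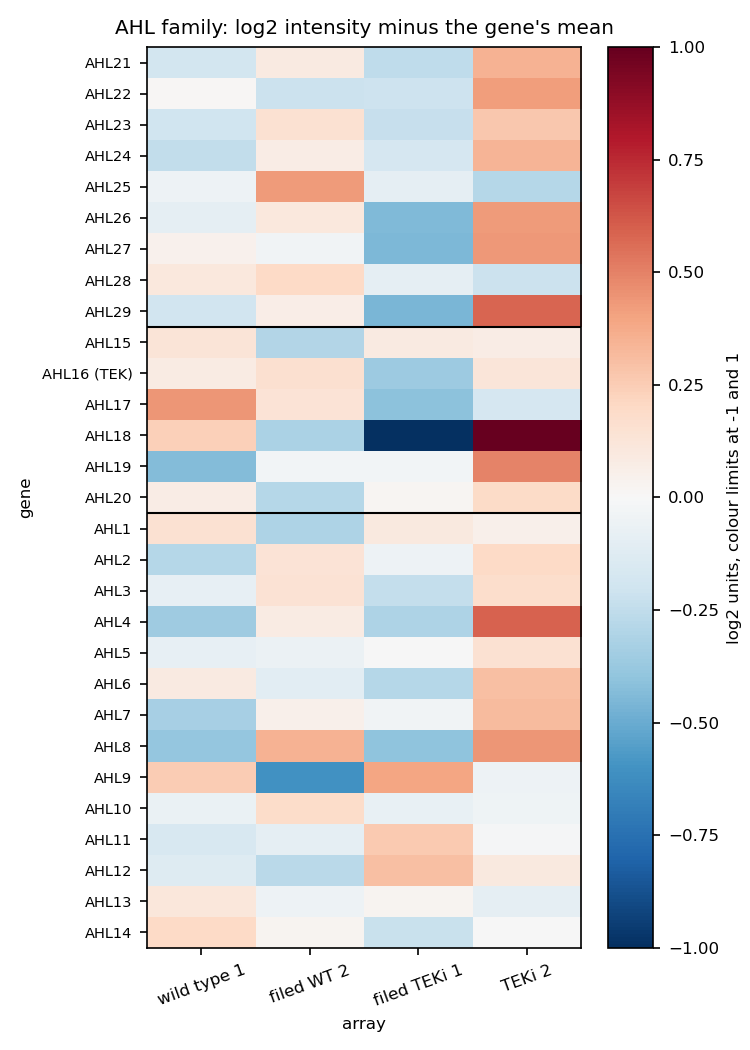
Log2 intensity of each AHL gene minus its mean over the 4 arrays, as colour, with genes in rows (AHL21 to AHL29, then the other clade A genes, then clade B, divided by lines) and arrays in columns. TEKi 2 is the highest array in 7 of the first 9 rows, and AHL18 runs past the colour limits on filed TEKi 1 and TEKi 2.

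Auxin synthesis and growth response genes, which stand downstream of light in hypocotyl elongation, gave no call under either set of labels. Of 11 genes, 10 were above 0 with the value-table labels (60.3% of all genes) with a median of 0.50, and 7 had groups apart, all higher in TEKi (27.7%). SAUR20, a small auxin-up RNA gene of cell expansion, had 11472 and 10810.1 in wild type against 22322 and 21412 in TEKi by those labels (a log2 difference of 0.97 with SE 0.157, adjusted p = 0.112). SAUR22 had 3726 and 3950.01 against 6144 and 7328 (adjusted p = 0.199). The auxin synthesis genes TAA1 (6170.4 and 7146 against 10763 and 11821, adjusted p = 0.210) and YUC8 (28184 and 23972 against 43396 and 40974, adjusted p = 0.239) were ordered the same way. With the array-file labels 5 of the 11 were above 0, with a median of -0.073. SAUR19 to SAUR24 are near-identical neighbours that may share signal, so they are not independent of each other. They did not all move together. By the value-table labels the groups overlapped for SAUR19 (12216 and 6757 against 8602 and 9550) and SAUR23 (9456 and 4274 against 8604 and 10952). The others of this stretch had TEKi above wild type.

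Light signalling genes differed less, but several lay close to the highest value in the files, so their differences may be compressed. Among these were PIF4 (57204 to 61566 over the arrays) and CRY1. Of 9 genes, 3 were above 0 with the array-file labels and 6 with the value-table labels (medians -0.060 and 0.14), and none passed under either. HY5, the factor that promotes light responses, had 1109 on wild type 1, 1229 on filed wild type 2, 899 on filed TEKi 1 and 1456 on TEKi 2, the order of SOB3. PIF3, a factor that light removes, had 24707, 17120.3, 17228 and 15295, and the photoreceptor gene CRY1 had 55870, 60198, 54206 and 62913. COP1, a ubiquitin ligase that acts against HY5 in darkness, had 21387, 32834, 24189 and 22604. In brassinosteroid signalling none of 4 genes passed, and BRI1, the hormone's receptor gene, was at the highest value on 3 of the arrays, so its differences are compressed. BZR1, a transcription factor of the pathway, was also at the highest value on filed TEKi 1 (57343, 46473, 64046.8 and 50213.8 in array order). BZR1 was below wild type on both arrays that the value table labels TEKi (adjusted p = 0.519, limma). Its relative BES1 (59808, 63858, 59000.4 and 56398) and the kinase gene BIN2 (57936, 59682, 58989 and 60185) varied less, at levels near that highest value.

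Among 7 gibberellin genes none passed, with medians of 0.078 and 0.067 under the 2 sets of labels. GA3OX1, the gene that AGF1 binds, had 27548 on wild type 1, 30085 on filed wild type 2, 37712 on filed TEKi 1 and 24474 on TEKi 2, a log2 difference of 0.078 (SE 0.296) with the array-file labels and -0.25 (SE 0.255) with the value-table labels. AGF1 and GA3OX1 were both lowest on TEKi 2, and their highest arrays were not the same. GA20OX1 was higher on both arrays filed as TEKi (3235 and 3864 against 4591 and 5446, with a log2 difference of 0.50, SE 0.213, adjusted p = 1). GA3OX2 (517 and 1250 against 1679 and 2971) was higher and GA20OX2 (14870.3 and 18131 against 8623 and 12259) lower in the arrays that the value table labels TEKi, with adjusted p of 0.413 and 0.406.

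The median range of 8 flowering genes was 1.80 log2 units, against 0.63 for the 9 AHL genes. Not all were wide: FD (0.19) and CO (0.37) varied less than any of the 9. FT, TSF, LFY and AP1 were dim, at 702 or less on every array. None of the 8 passed under either set of labels. With the array-file labels all 8 were below 0 (median -0.38), against 4 below and 4 above with the value-table labels (median 0.0069). FT, whose chromatin AHL22 acts on, was dim, at 702 on wild type 1, 189 on filed wild type 2, 161 on filed TEKi 1 and 306 on TEKi 2, and its order over the arrays was not that of AHL22. TSF, the close relative of FT, had 243, 250.1, 103 and 358, lowest on filed TEKi 1 and highest on TEKi 2 as SOB3 was. SOC1, which promotes flowering, was higher in the arrays that the value table labels TEKi (9107 and 6778 against 20772 and 23551, with a log2 difference of 1.49, SE 0.232, adjusted p = 0.105), and the repressor FLC was lower there (30904 and 15709 against 767 and 314, adjusted p = 0.0624). LFY, a meristem identity gene, stayed at or below 149 on every array.

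Genes tied to GIK in flowers were read in the same seedlings. AG, the activator of GIK, was lower on both arrays filed as TEKi (1666 and 1309 against 685 and 725, with a log2 difference of -1.07, SE 0.213, unadjusted p = 0.0123 and adjusted p = 1), a split that GIK did not show. The sum of 3 flower markers, AG among them, was 2996 on wild type 1, 3294 on filed wild type 2, 1064 on filed TEKi 1 and 1845 on TEKi 2, and the part of flower tissue was not tested. AP3 (711, 1417, 188 and 433) was lower on both arrays filed as TEKi as AG was, whereas PI (618, 569, 191 and 687) was lowest on filed TEKi 1 and highest on TEKi 2. ETT, an auxin response factor that GIK represses, had 24558 on wild type 1, 27035 on filed wild type 2, 28182 on filed TEKi 1 and 28804 on TEKi 2. CRC (227 and 261 against 487 and 340.1) and JAG (2292 and 1931 against 2426 and 3449), organ growth genes that GIK also represses, were higher in the arrays that the value table labels TEKi, with adjusted p of 0.357 and 0.560. No gene of the 5 passed under either set of labels.

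Genes for known partners of AHL proteins varied little, with a median range of 0.28 log2 units over 8 genes and no call. The histone deacetylase genes HDA19 (53502, 60985, 50842 and 58746 in array order as before), HDA6 (33998, 32865, 35379.9 and 29066) and HDA9 (24251, 23316, 27706 and 22912) stayed within narrow bounds. HDA19 and the partner gene FVE (55281 to 62729) lay near the highest value that the files hold, so their ranges may be compressed. TCP13, of the growth-regulating TCP factors, was the exception, with 2984 and 2568 in wild type against 6775 and 6935 in TEKi by the value table (log2 difference 1.31, SE 0.173, adjusted p = 0.0793). Of 6 leaf senescence genes, 1 was above 0 with the array-file labels and 5 with the value-table labels (medians -0.40 and 0.46), and none passed. NAP, a senescence regulator, had 7366 on wild type 1, 9200.2 on filed wild type 2, 1898 on filed TEKi 1 and 14525 on TEKi 2, the same array order as SOB3 and AHL26. ORE1 (listed as NAC6), another such regulator, had 8509, 7659, 3522 and 6028, and WRKY53 had 2041, 2577, 1621 and 2989. SAG12, a protease gene of senescent leaves, was dim, at 81.0, 76.3, 125 and 343.

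**Figure D4:**
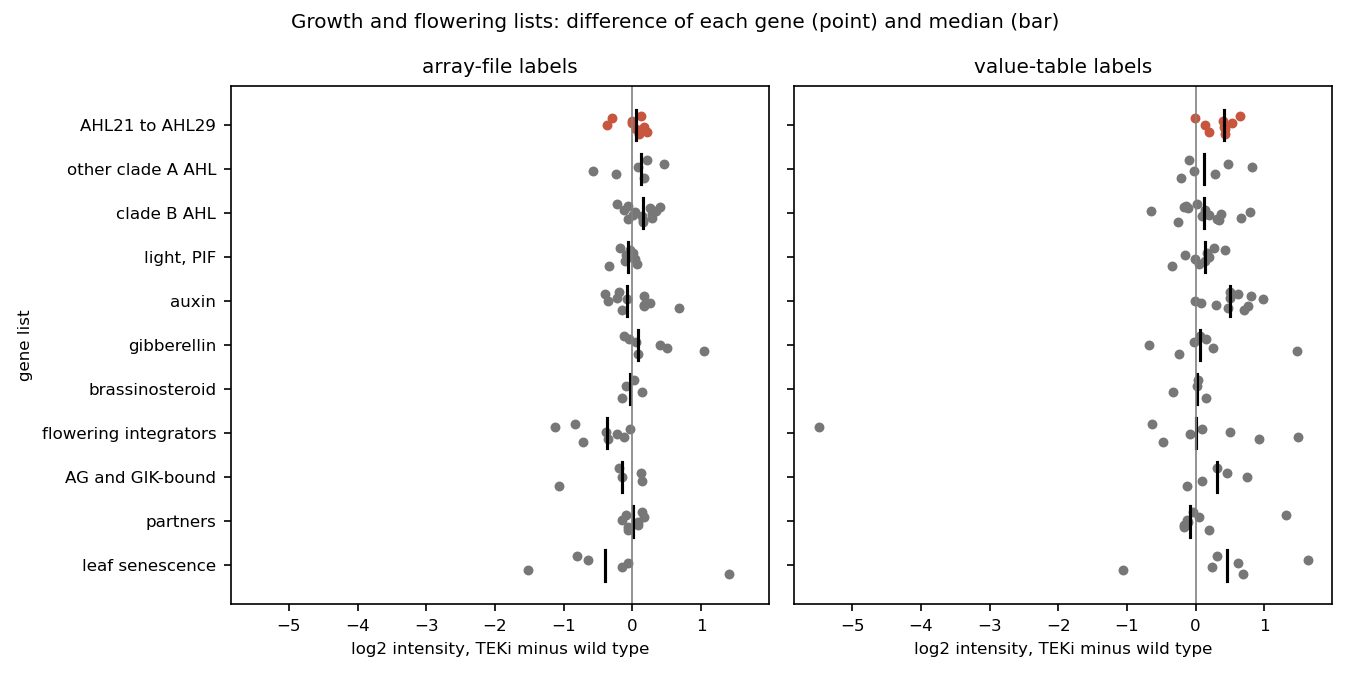
Log2 intensity of TEKi minus wild type for every gene (points) of AHL21 to AHL29 (red) and of the other lists (grey), with the list's median as a black bar, under the array-file labels (left) and the value-table labels (right). The median of AHL21 to AHL29 is 0.045 on the left and 0.42 on the right, and the point far to the left on the right is FLC (-5.49).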

How the data were processed

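For each gene model and array the authors deposited 1 linear intensity, made by RMA per the submitters' processing notes (background correction, normalization between arrays and probe summary). No version or setting of RMA is given in the sources used here. Gene models and coordinates follow genome release 6, and the number of probe pairs behind each model is that of the deposited annotation, per the file headers. No detection calls were used, and a deposited error column of unstated scale was left out. AHL numbers and symbols came from a RefSeq table of TAIR10.1, used for names alone (29976 of 30361 loci matched).

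Log2 intensities of 30352 genes were tested, leaving out 9 with an exact 0 and adding no pseudocount or filter. The 2 groups were compared in limma (lmFit, then eBayes, 2-sided) over all genes with Benjamini-Hochberg adjustment, with 2 residual degrees of freedom, on the array files and on the value table. SE is the moderated standard error, and intervals are at 95%. The procedure was run on simulated data, with planted changes larger than any difference of the 9 genes and arrays drawn independently. That run does not show how well differences of the size seen in the 9 are detected. The number of arrays limits the precision of each value.

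The members and gene lists were chosen with earlier results of these data known. Always named were the 9 genes and TEK, with up to 4 genes of each list by smallest unadjusted p under either set of labels. FT, AHL1, AHL2, AHL13 and any other gene beyond that rule were picked with their values in view. Alternatives were the other labels, normalization, filters, a pseudocount of 50, variance models, the replicate block and leaving out arrays. R 4.3.3 and limma 3.58.1 were used.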

Additional observations from a re-analysis of the deposited data

How the results depend on the processing

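The count of the 9 AHL genes that passed was 0 under every alternative run. With the array-file labels, 5 of the 9 were above 0, against 8 with the value-table labels and 3 of the 4 genes left without genes below the median level, and 0 to 7 without single arrays (0 without TEKi 2, 3 without wild type 1). With the value-table labels the count was 8, against 5 with the array-file labels, 4 of the 4 left without genes below the median level and 7 to 9 without single arrays. Of all genes, 0 were called with the array-file labels and 674 with the value-table labels, the latter count being 191 without genes below the median level, 1150 with a mean-variance trend, and 0 with plain per-gene variance, with the replicate block and without any single array. The directions of the AHL genes that turned are as follows. AGF1 went from -0.37 with the array-file labels to 0.14 with the value-table labels, AHL26 from -0.011 to 0.53 and ESC from -0.0090 to 0.40. AHL28 went from -0.014 with the value-table labels to 0.099 after quantile normalization. Without single arrays, the array-file differences ran from -0.21 to 0.39 for GIK, -0.10 to 0.52 for AHL22, -0.21 to 0.30 for AHL23, -0.086 to 0.42 for AHL24, -0.44 to 0.42 for AHL26, -0.45 to 0.43 for ESC and -0.40 to 0.64 for SOB3. The value-table differences ran from -0.12 to 0.51 for AHL22, -0.22 to 0.49 for AGF1 and -0.22 to 0.19 for AHL28. The cause of these turns was not tested. A group left with 1 array was assumed to vary like the other. Replicate numbers were not known to pair samples: deviations of same-numbered arrays from their group means correlated at 0.65 across genes with the array-file labels and 0.11 with the value-table labels, and the replicate block called 0 genes in both. Counts above 0 were chosen after seeing the data.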
